A study of Arabidopsis thaliana with 10 samples.

Results

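After 2 and after 4 days without boron, a small group of transcripts of Arabidopsis thaliana differed in mean level from control plants. The direction was the same at both days, and 98 of the 22746 probe sets of the ATH1 array made up this group. Of these, 50 were higher and 48 were lower under boron deficiency at both days. Whole plants were raised on perlite, fed a solution of 25 µM boron plus 3 mM calcium, and then watered without boron or without calcium, the calcium-free solution having its nitrate balanced by magnesium and potassium salts. The 10 arrays form 5 groups of 2 biological replicates: controls on the complete solution sampled at 2 days or at 4 days, boron deficiency sampled at the same times, and calcium deficiency, sampled at 2 days alone. Plants of the 2 day groups were 19 days old and those of the 4 day groups 21 days old, and all 5 groups shared the same growth before treatment. The labels start the deficiencies after 17 days, without saying from when, and the design text 19 days after sowing. The labels name neither the accession of the plants nor the number of plants behind an array, and replicates are called biological without further detail, so each group rests on 2 whole-plant samples.

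The members were chosen by measured values, the boron and calcium changes themselves. Signals were taken as log2(signal + 16), every array was shifted to the same median of 7.43, and group means of 2 arrays were compared within each day. A probe set entered when the boron change was at least 0.5 at both days, or at most −0.5 at both days, when its calcium change lay between −1 and 1, and when at least 1 group had a mean level of 7 or more. GH3.3 and IAA29 were left out. The boron and calcium changes below therefore chose the members and are given as a description. Calls of a model fitted to all probe sets are shown for these changes beside their background share, and they are not a test of the members. Every level is such a log2 level, with array values in the order replicate 1 and replicate 2, every change is a difference of log2 means, and a change of 1 is a 2-fold difference.

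Boron is taken up by plants as boric acid and is known above all for joining chains of the pectin rhamnogalacturonan II in the primary cell wall, so growing tissue needs a constant supply. Calcium also binds pectin, and in addition acts inside the cell as a signal that calmodulin-like proteins read. In whole-plant RNA, fewer cells of a type and less RNA per cell cannot be told apart.

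Replicate arrays did not agree equally well. Over 17059 probe sets the SD between replicates was 0.268 for control plants at 2 days, 0.247 for boron-deficient plants at 2 days, 0.146 for control plants at 4 days, 0.164 for boron-deficient plants at 4 days and 0.135 for calcium-deficient plants. At 4 days the boron-deficient arrays stood apart from each other: over the 13829 probe sets that met the level and calcium conditions, 349 were higher and 335 lower by at least 0.5 than the control mean on replicate 1, against 224 and 46 on replicate 2. Median signals as deposited lay between 115 and 121 for the 6 earlier arrays but between 232 and 243 for the 4 later ones, so levels are compared across days only after the shift. Of 8 root markers 2 could be matched to a named probe set, PYK10 and EXPA7. Here and below, a listed gene without a match may still lie on 1 of the 8730 unnamed probe sets. Their summed level was 10.55 and 10.93 in control and 11.20 and 11.60 in boron-deficient plants at 2 days. At 4 days it was 11.94 and 12.07 against 11.88 and 11.93. This sum is mostly PYK10, at 10.46 and 10.86 in control and 11.13 and 11.53 in boron-deficient plants at 2 days. EXPA7 lay far lower, at 6.66 and 7.26 in boron-deficient plants at 2 days, with the higher control at 6.62. Neither gene was called at either day by the model fitted to all probe sets, which called 7.94% of them at 2 days and 0.0117% at 4 days. Of 7 leaf markers 3 could be matched in this way. Their summed levels were 15.10 and 15.27 against 15.10 and 15.07 at 2 days. At 4 days they were 14.93 and 14.97 against 14.98 and 15.09. The part of the root markers in the 2 day values was not tested.

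More probe sets passed the boron limit of 0.5 at 2 days than at 4 days. Replicates also differed more in the control and boron-deficient groups of 2 days (SD 0.268 and 0.247) than in those of 4 days (0.146 and 0.164). The part of this spread in the counts was not tested. Of the 13829 probe sets, 945 (6.83%) were higher and 1024 (7.4%) lower by at least 0.5 at 2 days, and 188 (1.36%) were higher and 93 (0.672%) lower at 4 days. The 50 higher members were 5.29% of those higher at 2 days and 26.6% of those higher at 4 days. The 48 lower members were 4.69% of those lower at 2 days and 51.6% of those lower at 4 days. Opposite changes were few, with 3 probe sets higher at 2 days and lower at 4 days and 4 lower at 2 days and higher at 4 days. The 2 boron contrasts share no array, and across the 13829 probe sets their changes had a Pearson correlation of 0.33 and a Spearman correlation of 0.31, given as a description since probe sets are not independent.

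**Figure D1:**
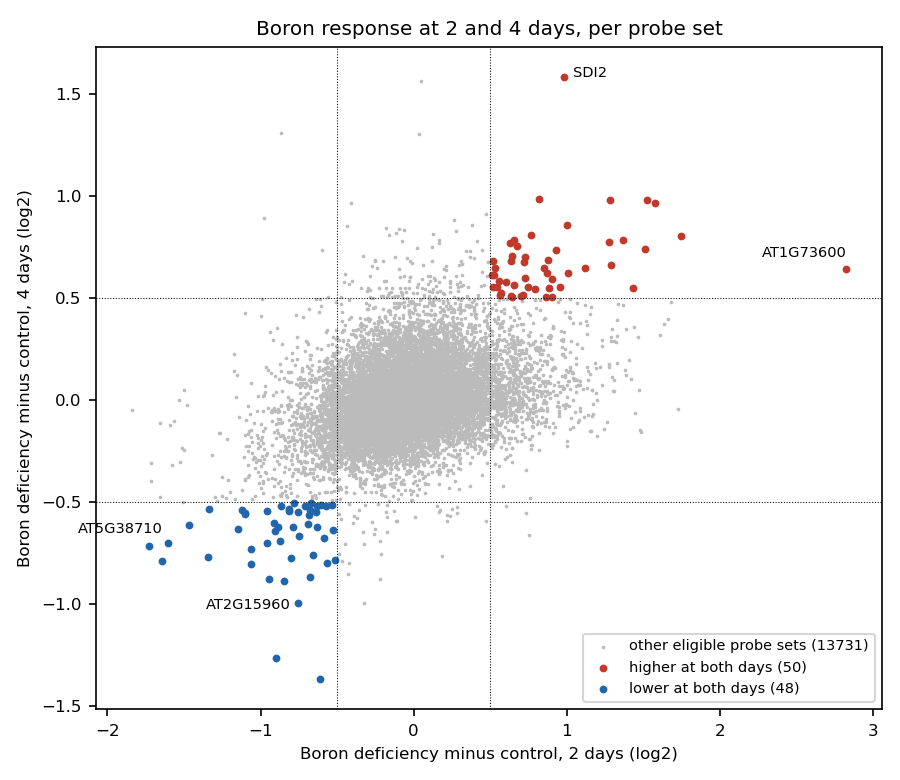
Each point is a probe set, with its change under boron deficiency at 2 days on the x axis and at 4 days on the y axis, both in log2 units against control plants of the same day. Dotted lines mark changes of 0.5, and the 50 higher (red) and 48 lower (blue) members fill the upper right and lower left corners by the rule.

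The median change of the higher members was 0.78 at 2 days and 0.64 at 4 days, and that of the lower members −0.81 and −0.62, against −0.06 and −0.00 over the 13829 probe sets. At 2 days 25 members differed at least 2-fold, and at 4 days 3 did. The change was larger at 4 days than at 2 days in 15 higher and 10 lower members. Both boron-deficient arrays lay above both controls in 47 of the 50 higher members at 2 days (21.3% of the 13829 probe sets did), in 46 at 4 days (21.3%) and in 43 at both days (6.13%). Both lay below both controls in 35 of the 48 lower members at 2 days (28.8%), in 39 at 4 days (20.5%) and in 30 at both days (8.76%). These counts come from the contrasts that chose the members, so nothing is read from them. Just inside the limit, UGT78D1 had a smaller change of 0.504 and AT1G22890 one of 0.506 in size, and the 4 unnamed probe sets among the 3 nearest on each side had 0.504 to 0.513. Just outside it lay AT5G27820, AT5G53420 and AT4G30020 at 0.498, 0.498 and 0.496 on the higher side and AT1G72060, AT3G43430 and AT3G18250 at 0.499, 0.490 and 0.489 on the lower side.

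All 98 members passed the filter on low values of the model fitted to all probe sets (limma, 17059 probe sets, Benjamini-Hochberg adjusted p under 0.05). At 2 days it called 39 of the 98 members (7.94% of all probe sets were called), 29 of the 50 higher members (4.65% of all probe sets were called higher) and 10 of the 48 lower members (3.29% lower). The former count was 17 to 29 and the latter 3 to 19 with each array left out. At 4 days it called 1 higher member (0.0117%) and 0 lower members (0%), while 60 of the 98 had an unadjusted p under 0.05, as did 825 of the 17059 probe sets (4.84%). The rule used both contrasts, so these counts describe the members and do not support them.

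Single genes could be named for 39 members, 24 higher and 15 lower. A further 2 lower members match several genes, and 57 members have no name in the sources used here. The name table gives many of these genes by locus only, and the roles below are background knowledge of the loci.

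The member with the largest smaller change was AT1G04770, known as SDI2, a gene induced by sulfur shortage whose protein, like that of its homologue SDI1, holds back the synthesis of glucosinolates, the sulfur-rich defence compounds of the cabbage family. Its level was 8.05 and 8.19 in control and 9.24 and 8.97 in boron-deficient plants at 2 days. It was 8.22 and 7.81 in control and 9.73 and 9.46 in boron-deficient plants at 4 days. The change was 0.98 (SE 0.17) at 2 days and 1.58 (SE 0.17) at 4 days, which is 1.98-fold and 3.00-fold. The SE is pooled over all 5 groups and is therefore the same at both days. All 4 boron-deficient arrays were above all 4 controls, and calcium-deficient plants lay between the 2 groups of their day at 8.85 and 8.69. It was the 1 member called at 4 days by the model above, on the contrast that chose it, and the call was lost with quantile normalization and with each of the 10 arrays left out. Of the 14 genes of the sulfur deficiency list only 2 could be matched to a named probe set. The other of these 2, BGLU28, was below the filter, with changes of 0.06 and −0.15. The rest of the list could not be looked up and may lie among the unnamed probe sets, members included.

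UGT74C1 (AT2G31790), a glucosyltransferase that adds the sugar in the synthesis of methionine-derived glucosinolates, was higher as well. Its level was 8.80 and 8.88 in control and 9.90 and 9.52 in boron-deficient plants at 2 days, and 9.54 and 9.52 in control and 10.14 and 10.17 in boron-deficient plants at 4 days. The groups did not overlap at either day, and control plants of 4 days stood close to the boron-deficient plants of 2 days. The changes were 0.87 and 0.62 (SE 0.15 for each), and it stayed in the set with each of the 10 arrays left out. Of 26 genes of glucosinolate synthesis 4 could be matched to a named probe set. By limma 3 of the 4 were called higher at 2 days (4.65% of all probe sets were) and none at 4 days (0.0117%). The 3 were BCAT4, GSTU20 and UGT74C1 itself, which this contrast had helped to choose. Besides UGT74C1 none of the 4 was a member: at 4 days BCAT4 changed by 0.40, UGT74B1 by 0.26 and the glutathione transferase GSTU20 by 0.24.

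Among proteins of the cell wall, AT1G60590, a protein of the pectin-cleaving polygalacturonase family, and AT1G23205, a protein of the pectin methylesterase inhibitor family, were higher at both days. AT1G60590 was at 6.62 and 6.22 in control and 7.40 and 7.44 in boron-deficient plants at 2 days, and at 7.57 and 7.25 in control and 8.47 and 8.07 in boron-deficient plants at 4 days. AT1G23205 was at 7.64 and 7.35 in control and 8.28 and 8.36 in boron-deficient plants at 2 days, and at 8.40 and 8.14 in control and 9.57 and 8.94 in boron-deficient plants at 4 days. Boron-deficient arrays lay above the controls in all 4 cases. The calcium changes of the 2 genes differed, at 0.83 for AT1G60590 and −0.04 for AT1G23205. AT1G23205 kept its place with each array left out, whereas AT1G60590 lost it without Control 2 d replicate 1 or calcium-deficient replicate 2, where its calcium change passed 1. AT3G26960, of the Ole e 1 and extensin family, had changes of 0.79 and 0.54. Of 26 genes of wall loosening 11 could be matched to a named probe set, and 0 of these 11 were members. XTH19 passed both boron limits (1.59 and 0.50) and was kept out by its calcium change of 1.86.

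**Figure D2:**
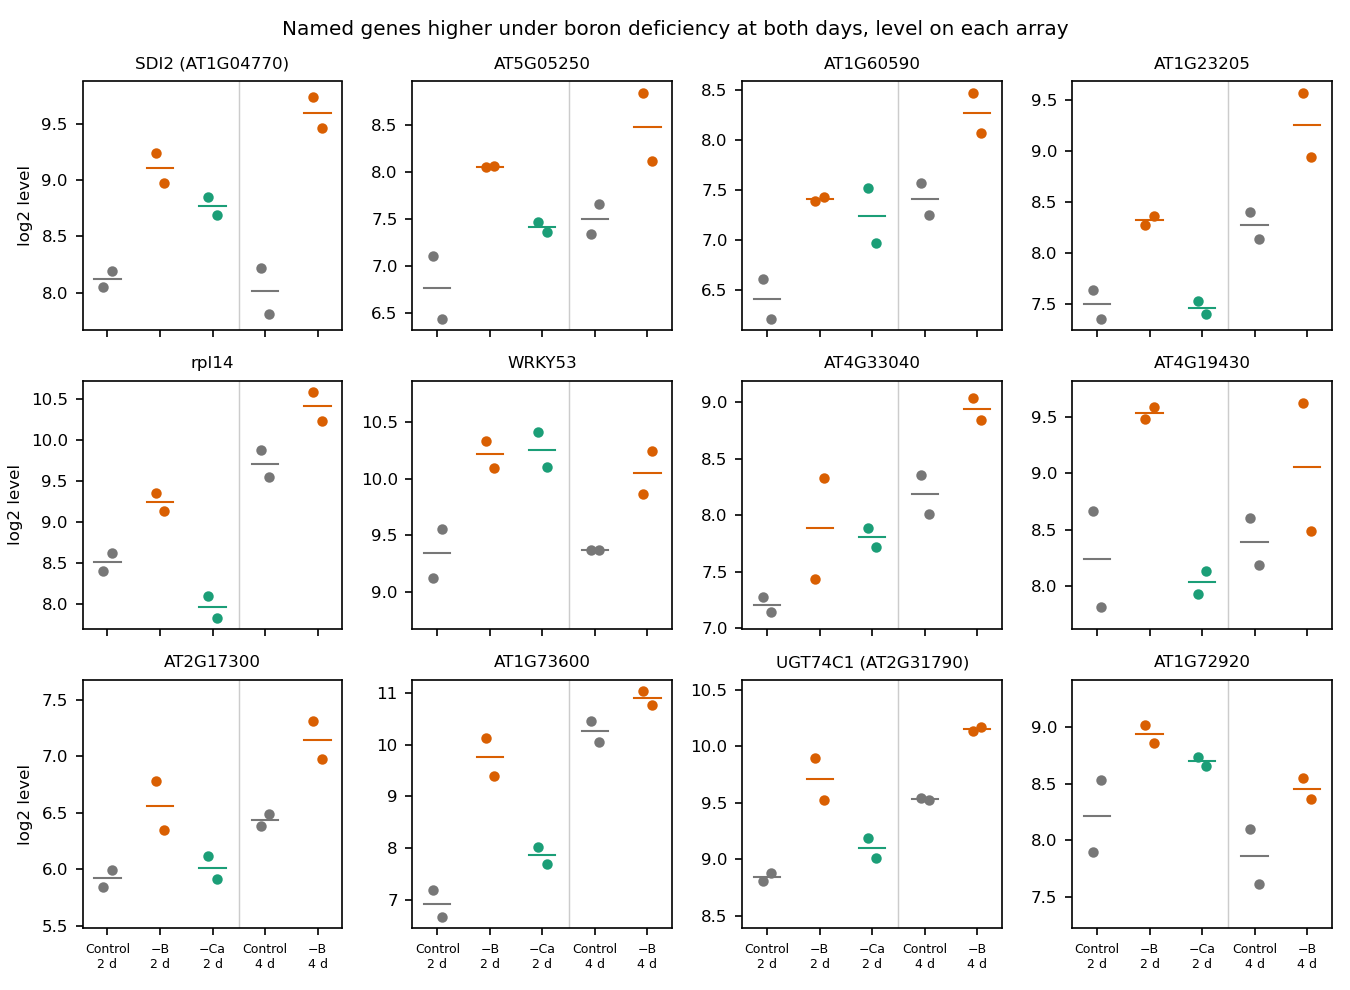
Each panel shows the log2 level (y axis) of 1 of the 12 named genes highest in their smaller boron change, with a point per array (left replicate 1, right replicate 2) and a bar for the mean of the 2 arrays of control (grey), boron-deficient (orange) and calcium-deficient (green) plants. In SDI2 the boron-deficient arrays reach 8.97 to 9.73 and no control array exceeds 8.22, while in AT1G73600 the 4 day controls (10.06 and 10.46) lie as high as the 2 day boron-deficient arrays.

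Of 13 rapid stress transcription factors 2 could be matched to a named probe set, and both were members. The rest of the list could not be looked up, and the list was chosen with earlier results of these data known. WRKY53, a WRKY factor of leaf ageing and defence, was at 9.12 and 9.55 in control and 10.34 and 10.10 in boron-deficient plants at 2 days, and at 9.37 and 9.37 in control and 9.86 and 10.25 in boron-deficient plants at 4 days. STZ (ZAT10), a zinc finger repressor induced by many stresses, was at 9.82 and 10.77 in control and 10.77 and 10.85 in boron-deficient plants at 2 days, and at 9.90 and 8.95 in control and 9.94 and 10.28 in boron-deficient plants at 4 days. WRKY53 did not overlap between groups at either day, and its calcium change of 0.92 was as large as its boron change of 0.88 at 2 days. In STZ control replicates differed by nearly 1 unit at both days, and at 2 days the higher control (10.772) almost reached the lower boron-deficient array (10.774). With single arrays left out, the STZ change lay between 0.04 and 0.99 at 2 days and between 0.21 and 1.16 at 4 days. AT1G72920, which encodes a protein with the TIR domain of plant immune receptors, was at 7.90 and 8.53 in control and 9.02 and 8.86 in boron-deficient plants at 2 days, and at 8.10 and 7.62 in control and 8.55 and 8.37 in boron-deficient plants at 4 days, with no overlap at either day.

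AT4G33040 and AT5G11930 both encode glutaredoxins of the plant-specific CC type, small proteins that interact with TGA transcription factors. AT4G33040 was at 7.27 and 7.14 in control and 7.44 and 8.33 in boron-deficient plants at 2 days, and at 8.36 and 8.01 in control and 9.04 and 8.84 in boron-deficient plants at 4 days. For AT5G11930 the levels were 6.39 and 6.24 in control and 6.51 and 7.27 in boron-deficient plants at 2 days, and 8.13 and 8.36 in control and 8.98 and 8.55 in boron-deficient plants at 4 days. In both genes replicate 2 carried most of the 2 day change, since replicate 1 exceeded the higher control by less than 0.2. AT5G11930 was not a member in 5 of the 10 cases with an array left out, and AT4G33040 was not without boron-deficient 2 d replicate 2.

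DFR, the dihydroflavonol reductase of anthocyanin synthesis, and UGT78D1, which attaches rhamnose to flavonols, lay close to the limit at 4 days. DFR was at 6.95 and 6.95 in control and 7.62 and 7.68 in boron-deficient plants at 2 days, and at 9.47 and 8.97 in control and 10.15 and 9.32 in boron-deficient plants at 4 days, so the 4 day groups overlapped. UGT78D1 was at 7.74 and 7.56 in control and 8.37 and 8.66 in boron-deficient plants at 2 days, and at 9.84 and 9.57 in control and 10.34 and 10.08 in boron-deficient plants at 4 days, with no overlap at either day. Both left the set without boron-deficient 4 d replicate 1 and without control 4 d replicate 2. Of 14 anthocyanin and phenylpropanoid genes 4 could be matched to a named probe set. Their median change was −0.06 at 2 days and 0.45 at 4 days. None of the 4 was called at either day, against 7.94% and 0.0117% of all probe sets (limma). UF3GT, an anthocyanin glycosyltransferase, changed by −0.05 and 0.53.

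AT1G73600, a phosphoethanolamine methyltransferase of choline synthesis, had the largest 2 day change of the group. Its level was 7.19 and 6.67 in control and 10.13 and 9.38 in boron-deficient plants at 2 days, and 10.46 and 10.06 in control and 11.03 and 10.77 in boron-deficient plants at 4 days. The change of 2.83 (SE 0.27) at 2 days was 7.10-fold, that of 0.64 at 4 days was 1.56-fold, and it was no member with quantile normalization. The plastid gene rpl14, for a protein of the large plastid ribosomal subunit, was at 8.40 and 8.62 in control and 9.35 and 9.13 in boron-deficient plants at 2 days, and at 9.87 and 9.55 in control and 10.59 and 10.24 in boron-deficient plants at 4 days. Its calcium change was of the other sign, at −0.55, and it stayed in the set with each array left out. AT3G57490, a protein of the cytosolic small ribosomal subunit, changed by 0.52 and 0.61.

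AT5G05250, of unknown function, had the second largest smaller change among the named higher members. Its level was 7.11 and 6.44 in control and 8.05 and 8.06 in boron-deficient plants at 2 days, and 7.34 and 7.66 in control and 8.84 and 8.11 in boron-deficient plants at 4 days, with no overlap at either day and a change of 1.28 and 0.98. AT4G19430 changed by 1.29 and 0.66, but at 4 days its second boron-deficient array (8.49) lay below the higher control (8.60). AT2G17300 changed by 0.64 and 0.70 at low levels between 5.84 and 7.31. AT5G22580, a stress-responsive protein with an A/B barrel, changed by 1.43 and 0.55 and stood at the calcium limit (0.997). The other named higher members were AT3G52740, known as BIC1, an inhibitor of the cryptochrome blue-light receptors (0.54 and 0.55), the ENTH/VHS protein AT3G46540 (0.66 and 0.57), AT3G52920 (0.52 and 0.55), AT5G35480 (0.51 and 0.61) and AT3G23170 (0.64 and 0.51). These 5, and AT5G22580, AT3G26960, AT5G11930 and AT3G57490, lay outside the rule for named genes and were added after their values were seen.

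On the lower side AT5G38710, the second proline dehydrogenase of the plant, which oxidizes proline in mitochondria, had the largest 2 day change among named genes. Its level was 9.52 and 10.45 in control and 8.35 and 8.39 in boron-deficient plants at 2 days, and 7.59 and 7.44 in control and 6.82 and 6.80 in boron-deficient plants at 4 days. The groups did not overlap at either day. The change was −1.61 (SE 0.24) at 2 days and −0.70 at 4 days, and −0.44 in calcium-deficient plants, and it stayed in the set with each array left out. AT4G27450, an aluminium-induced protein with YGL and LRDR motifs, was at 11.97 and 12.18 in control and 11.10 and 10.92 in boron-deficient plants at 2 days, and at 11.49 and 11.77 in control and 10.62 and 11.18 in boron-deficient plants at 4 days. AT5G63190, a translation regulator with MA3 domains, changed by −0.87 and −0.52. AT1G56220, of the dormancy and auxin associated family, changed by −0.64 and −0.55 at levels of 10.59 to 12.68.

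The title of the study names branched-chain amino acid metabolism. The breakdown genes of these amino acids that could be matched to a named probe set were not members, although some passed both boron limits. IVD changed by −2.26 at 2 days and −0.65 at 4 days and MCCA by −2.13 and −0.70, and their calcium changes of −1.95 and −2.30 kept them out. The calcium limit kept out 18 probe sets on the higher and 39 on the lower side in this way. Among them were MGL (−2.79 and −0.60), ATL8 (−1.68 and −0.76), GAT1_2.1 (−2.69 and −0.70) and, on the higher side, AT1G47400 (1.97 and 0.83), which encodes a peptide of the iron deficiency response. Of 17 listed breakdown genes 10 could be matched to a named probe set. By limma 5 of the 10 were called lower at 2 days, against 3.29% of all probe sets. None of the 10 was called at 4 days, when only 2 of the 17059 probe sets were (0.0117%).

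Single lower members belong to hormone or calcium responses. JRG21, a jasmonate-induced oxygenase that inactivates jasmonic acid, was at 8.36 and 8.42 in control and 6.98 and 7.96 in boron-deficient plants at 2 days, and at 7.03 and 6.70 in control and 6.34 and 6.18 in boron-deficient plants at 4 days. Calcium-deficient plants went the other way, with 8.997 and 9.24 and a calcium change of 0.73, the highest of the lower members. HAT2, an auxin-induced homeodomain factor, was at 9.30 and 10.05 in control and 9.36 and 8.84 in boron-deficient plants at 2 days, and at 10.32 and 10.64 in control and 9.76 and 10.16 in boron-deficient plants at 4 days, so the groups overlapped at 2 days. Of 15 auxin response genes 3 could be matched to a named probe set, and 2 passed the filter of the model. Of these 2, 1 was called lower at 2 days, as were 3.29% of all probe sets (limma). It was GH3.5, which was no member, with changes of −0.92 and −0.47. CML38, a calmodulin-like calcium sensor, was at 9.18 and 10.75 in control and 10.38 and 8.49 in boron-deficient plants at 2 days, and at 8.13 and 7.81 in control and 7.59 and 7.32 in boron-deficient plants at 4 days. Its 2 day replicates spanned more than 1.5 units in both groups, leaving out single arrays put its 2 day change anywhere between −1.48 and 0.41, and it was no member with quantile normalization. Of the 11 listed calcium sensor and transport genes 5 could be matched to a named probe set, and 4 passed the filter of the model. None of these 4 was called at either day, against 7.94% and 0.0117% of all probe sets (limma).

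**Figure D3:**
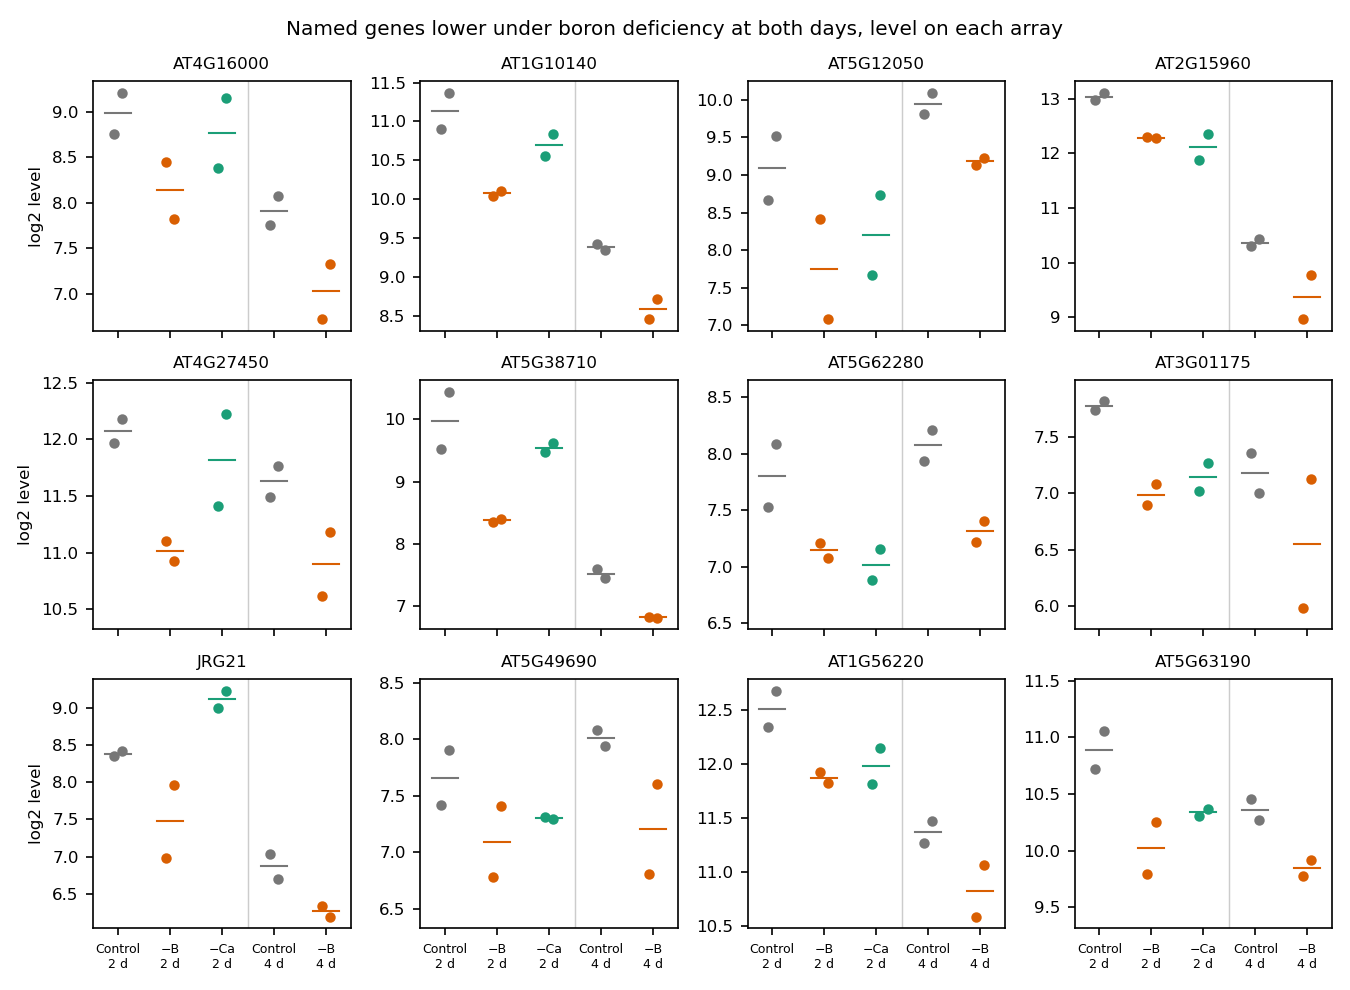
Each panel shows the log2 level (y axis) of 1 of the 12 named genes with the largest smaller boron change among the lower members, with a point per array (left replicate 1, right replicate 2) and a bar for the mean of control (grey), boron-deficient (orange) and calcium-deficient (green) plants. AT5G38710 and AT1G10140 keep a gap between control and boron-deficient arrays at both days, while AT3G01175 has an overlap at 4 days.

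AT4G16000 and AT1G10140, both of unknown function, headed the named lower members by their smaller change. AT4G16000 was at 8.76 and 9.21 in control and 8.45 and 7.82 in boron-deficient plants at 2 days, and at 7.76 and 8.07 in control and 6.72 and 7.33 in boron-deficient plants at 4 days. AT1G10140 was at 10.91 and 11.37 in control and 10.04 and 10.10 in boron-deficient plants at 2 days, and at 9.42 and 9.35 in control and 8.45 and 8.71 in boron-deficient plants at 4 days. Both genes kept the groups apart at each day and stayed in the set with each array left out. AT2G15960 had a larger change at 4 days (−0.996) than at 2 days (−0.75), at levels of 12.97 and 13.11 in 2 day controls and 10.30 and 10.44 in 4 day controls. The remaining named lower members were AT5G12050 (−1.34 and −0.77), AT5G62280 (−0.66 and −0.76), AT3G01175 (−0.79 and −0.62), the glycosyltransferase family gene AT5G49690 (−0.57 and −0.80) and AT1G22890 (−0.78 and −0.51).

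Of the 57 unnamed members, 4 are given here by their array values. Probe set 267461_at went from 14.0002 and 13.98 in control to 13.37 and 13.38 in boron-deficient plants at 2 days, and from 10.07 and 10.06 to 8.16 and 9.24 at 4 days, the largest 4 day change among the lower members (−1.37). Probe set 250662_at was at 8.18 and 7.99 against 6.96 and 7.41 at 2 days and 7.14 and 7.76 against 6.11 and 6.26 at 4 days. On the higher side 254343_at was at 8.41 and 8.67 against 10.49 and 9.65 at 2 days and 10.50 and 9.77 against 10.91 and 11.32 at 4 days. Probe set 263739_at was at 6.56 and 7.01 against 7.51 and 7.60 at 2 days and 9.40 and 9.09 against 10.07 and 10.03 at 4 days. These 4 were chosen after their values were seen. The 4 day boron-deficient arrays of 267461_at differed by an SD of 0.76, and 254343_at left the set without calcium-deficient replicate 2. In all 4 the groups did not overlap at either day, as in 43 of the 50 higher and 30 of the 48 lower members. Of the 13829 probe sets, 6.13% lay apart in this way on the higher and 8.76% on the lower side. The contrasts chose the members, so nothing is read from this. The smaller change of the unnamed members ran from 0.504 to 0.981 on the higher side and from 0.506 to 0.901 in size on the lower side. By its suffix, 1 higher and 1 lower member shares probes between transcripts, which is 2.04% of members against 4.66% of all probe sets.

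Calcium-deficient plants share their control arrays with the 2 day boron comparison, so the changes are given side by side only. The calcium change of the higher members had a median of 0.55 (quartiles 0.20 and 0.73, range −0.59 to 0.997) and that of the lower members a median of −0.44 (quartiles −0.62 and −0.22, range −0.98 to 0.73), with a median of −0.04 over the 13829 probe sets. Within a calcium change of 0.5 in size lay 21 higher and 28 lower members. Named members near 0 were AT1G23205 (−0.04), AT2G17300 (0.10), AT3G52920 (0.14), CML38 (−0.18) and UGT78D1 (0.19), and near the limit AT5G22580 (0.997), AT1G73600 (0.94), WRKY53 (0.92) and AT2G15960 (−0.92).

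**Figure D4:**
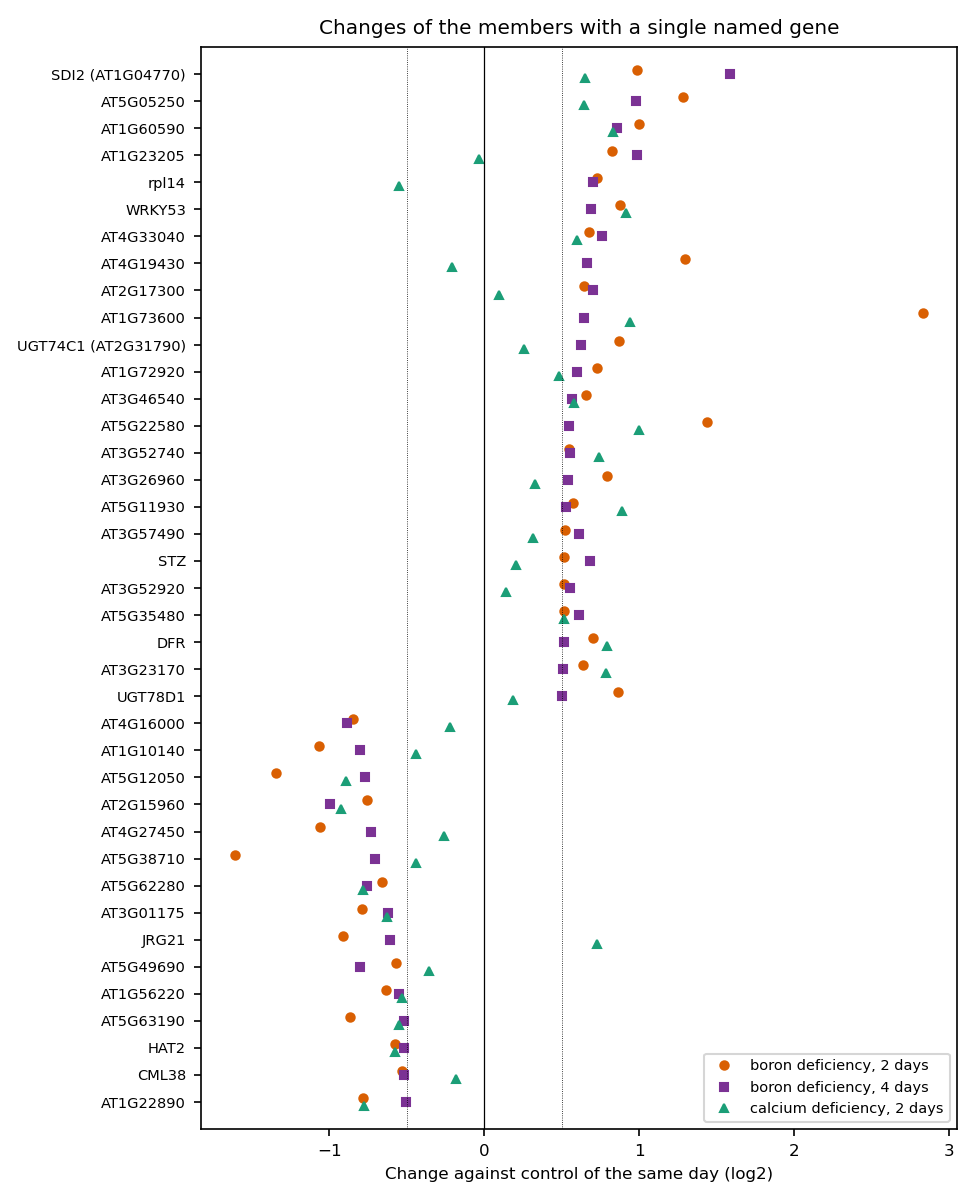
Changes against control plants of the same day, in log2 units on the x axis, are shown for the 39 members with a single named gene, for boron deficiency at 2 days (orange circles), boron deficiency at 4 days (purple squares) and calcium deficiency at 2 days (green triangles). Boron symbols lie beyond the dotted lines at 0.5 by the rule, and the calcium triangle of JRG21 (0.73) is far to the right of its boron symbols.

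Control plants of 4 and 2 days were also compared. The rule did not name this contrast, although its control arrays entered the boron changes, and the arrays of the 2 days were deposited on different scales. By limma 46 of the 98 members differed (38% of the 17059 probe sets did): 25 of the 50 higher members were higher in control plants of 4 days (17.6% of all were) and 2 were lower (20.4%), while 17 of the 48 lower members were lower and 2 were higher. The largest differences among named genes were those of AT1G73600 (3.33, SE 0.27, adjusted p = 2.77e-05), DFR (2.27, SE 0.27), UGT78D1 (2.06, SE 0.17), AT2G15960 (−2.67, SE 0.24) and AT5G38710 (−2.47, SE 0.24). SDI2 (−0.11, adjusted p = 0.655) and WRKY53 (0.03, adjusted p = 0.917) did not pass, nor did AT3G46540 (0.17), AT3G57490 (0.01), AT5G22580 (−0.07) and AT4G19430 (0.15). AT5G35480 (−1.55) and AT3G23170 (−0.86) were lower in the older controls but higher under boron deficiency. Age, sampling day and the scale of the deposited values cannot be told apart here, and the comparison shares its control arrays with both boron contrasts.

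Boron-deficient 4 d replicate 1 carried a large part of the 4 day values. Its distance from the control mean was the larger of the pair in 39 of the 50 higher and 45 of the 48 lower members. The share of all probe sets in which it was larger was not counted. Over the 13829 probe sets the median absolute distance was also larger on replicate 1, at 0.146 against 0.109 on replicate 2. For the higher members the median distance was 0.75 on replicate 1 and 0.53 on replicate 2, and for the lower members −0.92 and −0.34. Without replicate 1 the rule took 34 higher and 18 lower probe sets, of which 28 and 13 were among the members, and without replicate 2 it took 110 and 146, of which 46 and 47 were. In the lower members the SD between the boron-deficient 4 day arrays had a median of 0.40, against 0.19 in the higher members and 0.09 over the 13829 probe sets.

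**Figure D5:**
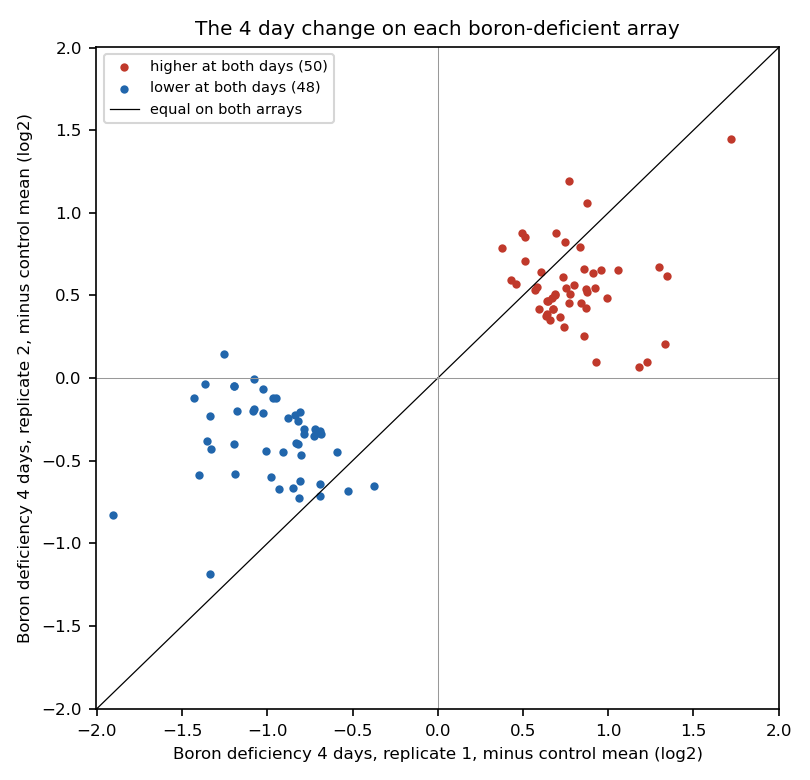
Each point is a member, with the distance of boron-deficient 4 d replicate 1 from the control mean on the x axis and that of replicate 2 on the y axis, in log2 units. Most blue points lie above the line of equal values with replicate 1 further below the control mean (median −0.92) than replicate 2 (−0.34).

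In all, 15 members met the rule with each of the 10 arrays left out in turn, 10 higher and 5 lower. The named ones were AT1G04770, AT5G05250, AT1G23205, rpl14 and UGT74C1 on the higher side and AT4G16000, AT1G10140 and AT5G38710 on the lower side.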

How the data were processed

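Total RNA of whole plants was measured on 10 ATH1 arrays, 2 in each of 5 groups taken from the sample titles. Per the submitters' processing notes, the deposited signal intensities were made with GCOS 1.4, and their scaling target is not given in the sources used here. Values were read as linear intensity and turned into log2(signal + 16). Each array was then shifted to the mean of the 10 log2 medians, and members were taken by the stated limits. limma 3.58.1 in R 4.3.3 was fitted to the 17059 probe sets at or above the 25th percentile of mean level, with 5 group means, an intensity trend and 5 residual degrees of freedom, and p-values were adjusted over all of them. SEs come from that fit, which pools the spread of all 5 groups, so a gene has the same SE in every contrast. The fit does not allow for the unequal replicate spread of the groups. The fit was also tried on simulated data that gave each probe set the same spread in all groups. That trial could not show how the unequal spread of the real groups affects the calls. Members, gene lists and tests were chosen with earlier results of these data known. Named genes were the 12 per direction with the largest smaller boron change, members of 21 gene lists and those nearest the limit. Of the 293 list entries, with repeats, 69 could be matched to a named probe set. Names came from a probe table and RefSeq TAIR10.1 loci: 13436 probe sets had a single matched gene, 503 several and 77 an unmatched one, and 8730 had no name. No promoter or protein sequences were used here, so the planned motif search was not run. Precision is limited by the number of arrays, and p-values set a difference against the pooled spread between samples of the same group. Python 3.11.15 and matplotlib 3.10.9 drew the figures.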

Additional observations from a re-analysis of the deposited data

How the results depend on the processing

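Membership depended most on the size of the limit and on single arrays. The 50 higher members became 10 with a limit of 0.75 and the 48 lower members 8, and 87 were lower without the calcium limit (68 higher). With each array left out the counts ran from 34 to 110 and from 18 to 146. The lower count moved over 1.5 times without boron-deficient 4 d replicate 1 (18) or 2 (146) and without control 4 d replicate 2 (81), the higher count without boron-deficient 4 d replicate 2 (110). Quantile normalization gave 49 and 51, of which 42 and 43 were members, pseudocounts of 1 and 64 gave 58 and 58 and 34 and 35, no level filter 51 and 49, and a common median at the lowest array, chosen after seeing the data, 48 and 47. Members called by limma at 2 days numbered 39 (23 to 48 with each array left out; 23 without control 2 d replicate 2 and 25 without boron-deficient 2 d replicate 2). At 4 days it was 1 (SDI2), and 0 with quantile normalization or any array left out, except that a lower member alone was called without boron-deficient 4 d replicate 2, which gives 0 to 1. Between control plants of 4 and 2 days it was 46 (33 to 53). Over all probe sets the calls ran from 592 to 2735 (1355 as reported), from 0 to 1 (2) and from 3650 to 6798 (6484) with each array left out, and at 4 days were 1 with quantile normalization. A left-out array leaves its partner alone, assumed to vary like the other groups. With the replicate number as a block the counts were 43, 1 and 50. The labels tie no numbers across groups, and deviations of same-numbered arrays correlated between −0.26 and 0.24, so the numbers were not taken as pairs. The 2 day change of CML38 ran from −1.48 to 0.41 and turned positive without control 2 d replicate 2 (0.25) or boron-deficient 2 d replicate 2 (0.41); the cause was not tested. No other change of a named member reversed.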
